A study of Homo sapiens with 6 samples.

Results

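ISLR and 7 genes of related build were followed through RNA-seq of HEK293FT cells, an established line derived from human embryonic kidney that carries the SV40 large T antigen. The 8 genes (ISLR, ISLR2, LRIG1, LRIG2, LRIG3, LINGO1, LRRN1 and LRRC4B) were found by gene name among the 58884 genes of the deposited table, each on 1 row. They were picked by name, with results of these libraries already known, so their levels are given as a description and no test of them is made. By the labels, 3 libraries (titled ISLR) come from cells kept for 72 h with supernatant into which ISLR had been secreted, and 3 (titled NC) from cells kept as long with an empty vector control supernatant. All cells grew in DMEM with serum. The labels name no separate cultures, so p-values here set differences against the spread among these libraries only, and that spread may be technical.

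All 8 proteins pair leucine-rich repeats, short curved units that bind other proteins, with immunoglobulin-like domains. ISLR is a secreted protein known mainly from stromal cells such as fibroblasts. The others sit in the cell membrane: LRIG1 to LRIG3 act on growth factor and BMP receptors, LINGO1 is a co-receptor in the Nogo receptor complex that restrains axon growth, and ISLR2, LRRN1 and LRRC4B are known from axons and synapses.

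The values are TPM, in which reads are divided by gene length and then expressed relative to a fixed total per library, as the authors deposited them. TPM keeps no record of sequencing depth, so the depth behind each value is unknown. The listed TPM summed to between 984556.67 and 987783.80 in each library. On the log2 scale, Pearson correlations between libraries ran from 0.980 to 0.984 in the same group and from 0.963 to 0.972 across groups, and no libraries held identical values. Of all listed genes, 13869 reached at least 1 TPM in at least 3 libraries and entered a limma fit of log2(TPM + 1). The median log2 difference of these genes, ISLR-labelled libraries minus NC-labelled libraries, was 0.22 and not 0. A gene that moved with this median shows a difference of about 0.22 on the deposited scale. The shift was not the same at every level. Quantile normalization, which gives all libraries the same set of values, took LINGO1, at 14.24 to 19.53 TPM, from 0.26 to -0.0005. SLIT2, at 241.55 to 263.78 TPM, stayed at -0.04, and VIM, at 1116.16 to 1259.53 TPM, went from 0.14 to 0.21. After median-of-ratios scaling, which takes out a shift shared by most genes, the median was 0.00135. In bulk RNA, fewer cells that express a gene and less RNA per cell cannot be told apart.

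The genome places 3 of the 8 genes on chromosome 15, by GENCODE 29 on GRCh38. ISLR (ENSG00000129009.12) lies at chr15:74173671-74176872 on the plus strand, ISLR2 before it on the same strand at chr15:74100311-74138540, and LINGO1 at chr15:77613027-77820900 on the minus strand. LRIG1 and LRRN1 lie on chromosome 3, LRIG2 on chromosome 1, LRIG3 on chromosome 12 and LRRC4B on chromosome 19. The genes differ in structure. The principal ISLR transcript has 2 exons and its whole coding region of 1284 bases, for 428 amino acids, lies in 1 of them. ISLR2 (745 amino acids) and LRRN1 (716 amino acids) are likewise coded in 1 exon, and LINGO1 (620) and LRRC4B (713) in 2. The LRIG genes are coded in 18 or 19 exons, for 1065 to 1119 amino acids.

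The 250 bases before each annotated start are printed for ISLR, the gene whose libraries fall into an on and an off group, and for LRRC4B, which had the largest difference among the expressed relatives. They come from RefSeq on GRCh38.p14 and are written 5′ to 3′ on the strand of the gene. Capitals mark GGGCGG, the core of a GC box. The first ISLR window is chr15:74173460-74173709 (plus strand), the second chr15:74174297-74174546 (plus strand), and the LRRC4B window chr19:50551043-50551292 (minus strand).
ISLR, first start: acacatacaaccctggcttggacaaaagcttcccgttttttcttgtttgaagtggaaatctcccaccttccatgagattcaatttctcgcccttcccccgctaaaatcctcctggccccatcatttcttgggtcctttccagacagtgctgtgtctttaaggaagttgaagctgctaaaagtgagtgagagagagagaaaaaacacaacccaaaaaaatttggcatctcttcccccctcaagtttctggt
ISLR, second start: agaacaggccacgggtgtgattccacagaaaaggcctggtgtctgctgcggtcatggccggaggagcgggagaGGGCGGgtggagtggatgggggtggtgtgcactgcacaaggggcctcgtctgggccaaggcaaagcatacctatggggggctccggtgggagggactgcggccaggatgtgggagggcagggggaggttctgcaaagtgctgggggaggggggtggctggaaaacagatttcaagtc
LRRC4B: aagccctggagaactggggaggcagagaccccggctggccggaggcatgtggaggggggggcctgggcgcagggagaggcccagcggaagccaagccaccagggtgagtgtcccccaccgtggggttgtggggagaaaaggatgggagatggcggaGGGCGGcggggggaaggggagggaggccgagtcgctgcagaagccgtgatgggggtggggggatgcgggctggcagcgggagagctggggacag

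The first ISLR window had the lowest GC content of the 21 windows listed for the 8 genes, at 45.2%. That was above 22.4% of 35116 windows of the same length in the reference, and the window held 3 CpG. The second ISLR window had 64.0% GC and 8 CpG, and that of LRRC4B had 71.6% GC and 13 CpG. The median over all windows was 58.0% GC and 11 CpG. The TATA motif, the CCAAT box and the GC box core were searched on both strands in the 21 windows of the 8 genes. TATAAA was found in 0 of them and in 10.7% of all windows. CCAAT, a box bound by NF-Y, was found in 8 of them and in 32.0% of all windows, and GGGCGG in 13 of them and in 42.6% of all windows. None of the 3 was found in the first ISLR window. The 21 windows are not separate promoters, since LRIG1 and LINGO1 have several each. Some overlap, such as chr3:66501122-66501371 and chr3:66501023-66501272 of LRIG1, so the same match can count for both windows. A match is a match of letters only.

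ISLR mRNA was present at a high level in the NC-labelled libraries and near 0 in the ISLR-labelled ones. It was listed at 0, 0.02 and 0 TPM in the ISLR-labelled libraries, against 510.32, 555.37 and 535.06 TPM in the NC-labelled ones. The groups lie far apart, and within the NC-labelled libraries the values differ little (coefficient of variation 4.23%). ISLR ranked between 230 and 246 from the top among all listed genes in each NC-labelled library, and made up 0.0518% to 0.0563% of the listed TPM there. The difference of the group means, labelled ISLR minus labelled NC, was -534 TPM. On the log2(TPM + 1) scale it was -9.05 ± 0.0583 (SE, n = 3 each), but with 2 of 3 libraries at 0 this value depends on the pseudocount, being -12.29 with a pseudocount of 0.1 TPM and -6.75 with 5 TPM. ISLR passed the filter on low values only through the NC-labelled libraries. Since the gene named on the label was high in the other group, the libraries go by their labels here, and an exchange of the labels would turn every direction.

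No stretch of 31 bases of ISLR was found in another annotated gene. Of 2635 distinct stretches of 31 bases in the ISLR transcripts of GENCODE 29, 0 occurred in a transcript of another gene on either strand. Likewise 0 were shared for LRIG3, LINGO1 and LRRC4B, and the 8 genes shared 0 such stretches with each other. LRIG1 shared 11.3% of its stretches with SLC25A26, which overlaps it on the opposite strand, and LRIG2 shared 18.0% with other genes, mostly with the pseudogene RLIMP2. ISLR2 shared 7.53% and LRRN1 3.64%. The sources used here do not give the strand setting of the authors' counting, so reads of LRIG1 and SLC25A26 may not have been separated.

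**Figure D1:**
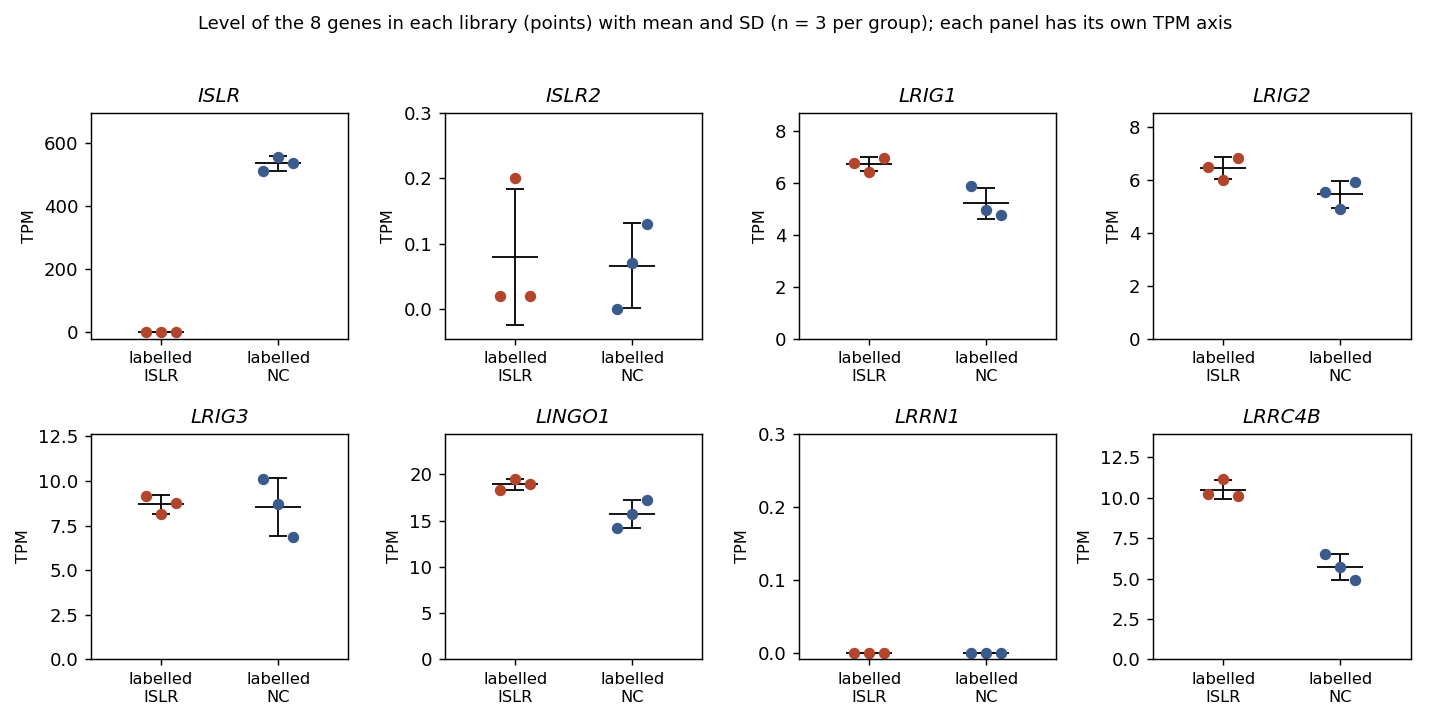
TPM of the 8 genes (vertical axes, one scale per panel) in each of the 3 ISLR-labelled libraries (left) and the 3 labelled NC (right), with the mean and SD as black bars. ISLR lies at 0 to 0.02 TPM on the left and at 510.32 to 555.37 TPM on the right, LRRC4B lies higher on the left in all libraries, and LRIG3 overlaps.

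The genes annotated around ISLR did not show this pattern. GENCODE 29 lists 40 other genes within 500 kb of it, of which 38 have a row of their own in the table and 14 passed the filter. AC010931.3, an antisense gene that overlaps ISLR, was listed at 0 in all 6 libraries. ISLR2 stood at 0.02, 0.20 and 0.02 TPM in the ISLR-labelled libraries, and at 0, 0.07 and 0.13 TPM in the NC-labelled ones. STRA6, a receptor for retinol-binding protein that lies 2594 bases beyond ISLR, stood at 0.82, 0.52 and 0.32 TPM in the ISLR-labelled libraries, against 0.77, 0.82 and 0.48 TPM in the NC-labelled ones. Both overlap between the groups and neither reached 1 TPM. PML, which builds the nuclear bodies of that name, was the nearest neighbour above 20 TPM, with 23.0 ± 1.22 TPM in the ISLR-labelled libraries and 23.6 ± 2.12 TPM in the NC-labelled ones (SD, n = 3 each). Its log2 difference was -0.04 as deposited (limma adjusted p = 0.733) and -0.28 after scaling, where it was called lower (limma adjusted p = 0.0244).

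Among the 14 tested neighbours the limma fit called 5 higher and 0 lower in the ISLR-labelled libraries at an adjusted p under 0.05, against 38.5% of all tested genes called higher and 7.38% called lower. The 5 were INSYN1, INSYN1-AS1, STOML1, ARID3B and EDC3. After scaling the fit called 0 higher and 4 lower, against 18.2% and 20.4% of all tested genes. The median log2 difference of the 14 was 0.12 on the deposited scale, against 0.22 over all tested genes. EDC3, an activator of mRNA decapping, stood at 47.2 ± 1.20 TPM in the ISLR-labelled libraries, against 36.5 ± 2.37 TPM in the NC-labelled ones (log2 difference 0.36, limma adjusted p = 0.00269, and 0.143 after scaling). SEMA7A, a membrane-anchored semaphorin, stood at 7.58 ± 1.70 TPM in ISLR-labelled libraries, against 10.3 ± 0.891 TPM in NC-labelled libraries (-0.42, limma adjusted p = 0.0526, and 0.0138 after scaling).

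**Figure D2:**
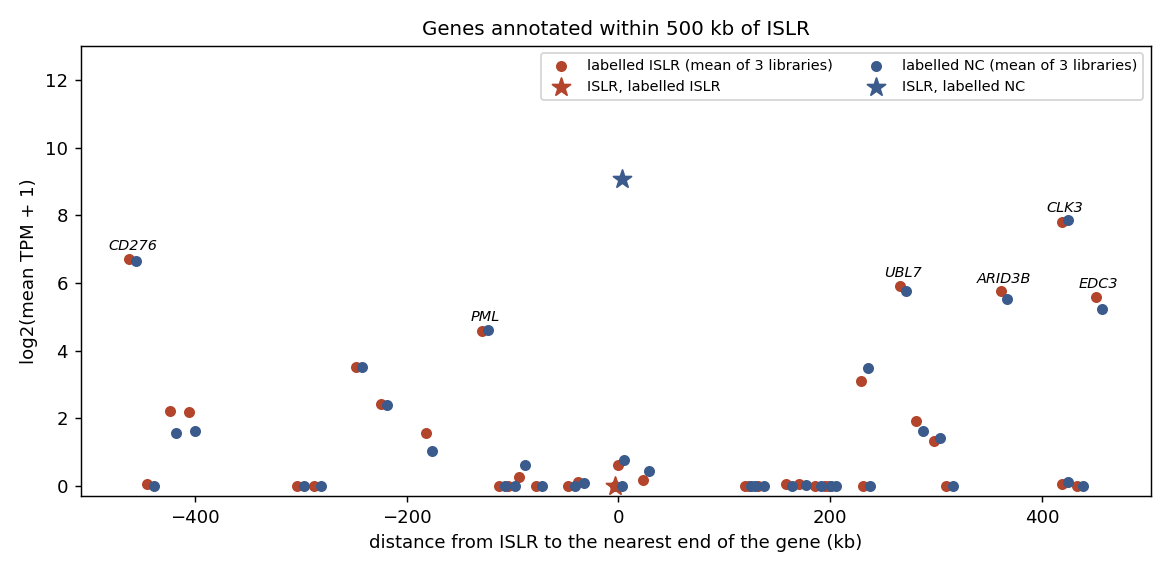
Mean level of the 38 neighbours with a row of their own (circles) and of ISLR (stars), as log2(mean TPM + 1) of 3 libraries, against the distance from ISLR in kb. ISLR is at 534 TPM in the NC-labelled libraries and near 0 in the ISLR-labelled ones, while no neighbour shows a gap of that kind, the widest among those above 20 TPM being EDC3 at 47.2 TPM in ISLR-labelled and 36.5 TPM in NC-labelled libraries.

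A pattern like that of ISLR was rare in the table. Only 5 of 58884 listed genes (0.00849%) stood at 0.1 TPM or less in all ISLR-labelled libraries and at 1 TPM or more in all the NC-labelled ones, and 0 genes did the reverse. Besides ISLR these were the 7SK pseudogene RN7SKP268, the RPL37 pseudogene AL451007.1, and AL158835.2 and AC113410.3, to which the table gives no function. Each was listed at 0 in the 3 ISLR-labelled libraries, and their lengths in the table were 203 to 316 nt, against 2331 nt for ISLR. In the NC-labelled libraries they lay between 1 and 3.83 TPM, except for AC113410.3 at 50.25, 41.71 and 15.16 TPM. ISLR was the highest of the 5 in each NC-labelled library. Likeness was also measured over 9193 genes of at least 5 TPM on average, as the root mean square difference of the 6 values after each gene was divided by its highest library. The cut at 5 TPM left out RN7SKP268, AL451007.1 and AL158835.2, so on-off profiles of low genes were not compared. Among the genes kept, the closest to ISLR were DNAJB1 (0.171), IPO9-AS1 (0.173) and SNORA73B (0.199), where 0 would be the same profile. None of the 3 was off in either group: DNAJB1, for example, stood at 51.1 ± 1.29 TPM in the ISLR-labelled libraries and at 215.4 ± 0.679 TPM in the NC-labelled ones.

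Of the 7 relatives in the set, 5 were expressed in every library (LINGO1, LRRC4B, LRIG1, LRIG2 and LRIG3) and 2 were not. LRRN1, a neuronal surface protein, was listed at 0 in all 6 libraries. ISLR2, whose product is found on growing axons, stayed at or under 0.20 TPM. With ISLR left out, the levels of the other 7 genes summed to 51.4 ± 0.339 TPM in the ISLR-labelled libraries and to 40.8 ± 1.35 TPM in the NC-labelled ones (SD, n = 3 each). These sums are on the deposited scale, where the median log2 difference of all tested genes was 0.22. LRRC4B gave the largest part of the gap, with a difference of 4.79 TPM.

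The order of levels among the expressed relatives was close in both groups. In the ISLR-labelled libraries it ran LINGO1, LRRC4B, LRIG3, LRIG1, LRIG2, and the ranges of LRIG1 and LRIG2 overlapped. In the NC-labelled libraries, where ISLR stood above all of them, it ran LINGO1, LRIG3, LRRC4B, LRIG2, LRIG1. There the ranges of LRRC4B and LRIG2 and those of LRIG2 and LRIG1 overlapped, so these 3 did not differ in order beyond their spread. LRRC4B and LRIG3 changed places, and their ranges did not overlap in either group.

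LRRC4B showed the largest difference of the 5. This protein, also called NGL-3, stands on the postsynaptic side and binds receptor phosphatases across the synapse. It had 10.24, 11.16 and 10.09 TPM in the ISLR-labelled libraries, against 6.51, 5.72 and 4.89 TPM in the NC-labelled ones. Every ISLR-labelled library was above every NC-labelled library. The ratio of the means was 1.84, and the log2 difference was 0.78 ± 0.110 (SE, n = 3 each), or 0.57 above the median of all tested genes. After scaling it was 0.56 ± 0.112 and the groups still did not overlap.

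LINGO1 had the highest level of the relatives. It stood at 18.33, 19.53 and 19.00 TPM in the ISLR-labelled libraries, against 14.24, 15.72 and 17.27 TPM in the NC-labelled ones. The groups did not overlap as deposited, although the gap between the closest libraries was smaller than the range within the NC-labelled libraries. The log2 difference was 0.26 ± 0.0819 (SE, n = 3 each), 0.04 above the median of all tested genes. After scaling it was 0.02 ± 0.0786 and the groups overlapped.

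The 3 LRIG genes lay close to one another. LRIG1, a feedback inhibitor that lowers ErbB receptors, stood at 6.77, 6.43 and 6.96 TPM in the ISLR-labelled libraries, against 5.89, 4.97 and 4.78 TPM in the NC-labelled ones. LRIG2 stood at 6.51, 6 and 6.84 TPM in ISLR-labelled libraries, against 5.54, 4.92 and 5.94 TPM in NC-labelled libraries. For both, every ISLR-labelled library was above every NC-labelled library. Their log2 differences were 0.32 ± 0.102 and 0.21 ± 0.101 (SE, n = 3 each), near the median of 0.22. LRIG3 stood at 9.16, 8.13 and 8.79 TPM in the ISLR-labelled libraries, against 10.13, 8.69 and 6.86 TPM in the NC-labelled ones. Its NC-labelled libraries spanned the ISLR-labelled ones, and the log2 difference was 0.03 ± 0.135. After scaling the 3 genes were at 0.10 ± 0.101, -0.01 ± 0.0968 and -0.19 ± 0.139, all with overlapping groups. With quantile normalization LRIG1, LRIG2 and LRIG3 were at 0.02, -0.09 and -0.25, LINGO1 at -0.0005 and LRRC4B at 0.50. LRIG2 and LRIG3 turned sign with the scaling. LRIG3 also did so without ISLR-labelled library 1 (-0.0015) and without NC-labelled library 3 (-0.10), and stood at 0.15 without NC-labelled library 1. With single libraries left out, LRIG1 ranged from 0.27 to 0.39, LRIG2 from 0.14 to 0.26, LINGO1 from 0.19 to 0.32 and LRRC4B from 0.69 to 0.87.

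As deposited, 4 of the 5 expressed relatives did not overlap between the groups, all higher in the ISLR-labelled libraries, against 46.3% of all tested genes. ISLR was the 1 gene of the set lower in all, against 10.5% of tested genes, and 56.8% did not overlap in either direction. After scaling LRRC4B was the 1 relative that did not overlap, against 26.1% of tested genes higher, and ISLR was again lower, against 26.6%. Nothing is read from these counts, because the genes were chosen with this comparison known.

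**Figure D3:**
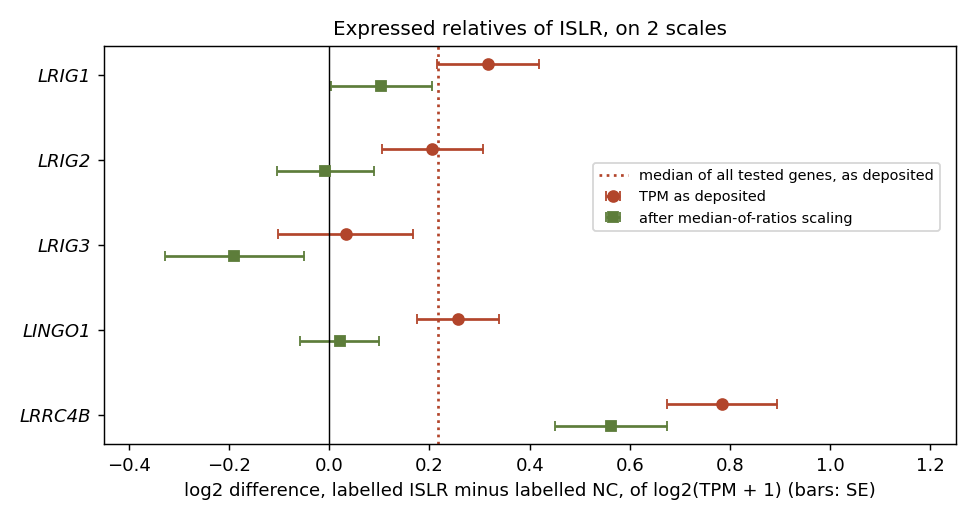
Log2 difference of log2(TPM + 1), labelled ISLR minus labelled NC, with its SE (n = 3 per group), for the 5 expressed relatives. Circles are TPM as deposited, squares are values after scaling, and the dotted line is the median of all tested genes (0.22): LRRC4B lies at 0.78 and 0.56, and the other 4 lie around the line or, after scaling, around 0.

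The 5 expressed relatives also differed in spread. The coefficient of variation was 3.17% to 6.56% in the ISLR-labelled libraries and 9.40% to 19.1% in the NC-labelled ones, larger in the NC-labelled libraries for each of the 5. Over all tested genes it was larger there for 53.8%, with medians of 8.31% in the ISLR-labelled libraries and 8.98% in the NC-labelled ones.

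Each expressed relative had near neighbours in profile, by the same measure and over the same 6 libraries and 9193 genes. For LINGO1 these were AP000295.1 (0.00834), RHOG (0.0117) and AK6 (0.0134). For LRRC4B they were AC026470.1 (0.0233), TCP11L1 (0.0264) and OXLD1 (0.0269). For LRIG1 they were BET1 (0.0208), KRTAP19-1 (0.0225) and MSL1 (0.0263). For LRIG2 they were STAM (0.0250), TES (0.0279) and ACTL6A (0.0285), and for LRIG3 AKTIP (0.0468), HOXC-AS1 (0.0492) and TMEM159 (0.0503). ISLR, at 0.171 from its nearest gene, had the least close company of the 6.

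A wider family of proteins joins leucine-rich repeats to immunoglobulin-like domains. Of 28 such genes outside the set, 6 passed the filter, beside 13869 of all 58884 listed genes. The listed genes include pseudogenes and non-coding RNAs, so these shares are not of like genes. The other 22 of the 28 stayed at or under 1.5 TPM in every library, and 5 of them (LINGO2, LINGO4, LRRC4C, AMIGO3 and MXRA5) were listed at 0 throughout. Of the 6 tested genes 5 were higher in the ISLR-labelled libraries and 0 lower (limma, adjusted p under 0.05), against 38.5% and 7.38% of all tested genes. After scaling 2 were higher and 0 lower, against 18.2% and 20.4%, and quantile normalization likewise left 2 higher. The median log2 difference of the 6 was 0.46, against 0.22 over all tested genes, and 0.23 after scaling, against 0.00135.

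ADGRA2, an adhesion receptor also called GPR124 that acts in Wnt7 signalling, stood at 4.29, 4.69 and 4.29 TPM in the ISLR-labelled libraries, against 1.85, 2.09 and 2.42 TPM in the NC-labelled ones (log2 difference 0.80, limma adjusted p = 0.00164, and 0.00562 after scaling). LRFN3, a synaptic adhesion protein, stood at 5.67, 4.26 and 3.46 TPM in ISLR-labelled libraries, against 2.31, 1.11 and 1.73 TPM in NC-labelled libraries (1.01, limma adjusted p = 0.00771, and 0.0227 after scaling). These 2 rose on both scales and without any single library. PXDN, the peroxidase that cross-links collagen IV, had a log2 difference of 0.48 (limma adjusted p = 0.00686) and LRFN1 one of 0.43 (limma adjusted p = 0.00902). Neither passed after scaling (limma adjusted p = 0.0866 and 0.114). LRFN4 had a difference of 0.37 (limma adjusted p = 0.0272, and 0.305 after scaling). Its call was lost without ISLR-labelled library 2 or 3, or NC-labelled library 1 or 3 (limma adjusted p = 0.0582 to 0.0772). ADGRA3, a relative of ADGRA2, did not pass (0.19, limma adjusted p = 0.189).

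Proteins with leucine-rich repeats but no immunoglobulin-like domain were set beside them. Of 25 such genes 9 were tested, and 3 were higher and 0 lower in the ISLR-labelled libraries, against 38.5% and 7.38% of all tested genes. Their median log2 difference was 0.23. After scaling 2 were higher and 1 lower, against 18.2% and 20.4% of all tested genes, and quantile normalization left 1 higher and 0 lower. Of the 3 calls, that of LGR4 was lost in 5 of 6 fits with 1 library left out, all but that without NC-labelled library 3 (limma adjusted p = 0.0856 to 0.109). SLIT2, a secreted axon guidance protein, was the most abundant, at 241.55, 263.78 and 249.22 TPM in the ISLR-labelled libraries and at 252.57, 261.77 and 259.55 TPM in the NC-labelled ones (log2 difference -0.04, limma adjusted p = 0.466, and 0.00138 after scaling). FLRT1 had a log2 difference of 0.90 (limma adjusted p = 0.00138) and SLITRK5 one of 0.53 (limma adjusted p = 0.00403). Both also passed after scaling (limma adjusted p = 0.00352 and 0.0278) and kept their calls without any single library. Whether the lists differ from each other was not tested.

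Genes known around these proteins, called partners here, were taken as 5 lists with 41 genes, of which 26 were tested. The lists were made for ISLR, the LRIG proteins, LINGO1 and LRRC4B, and none was made for ISLR2 or LRRN1. They include 10 ErbB ligands, which bind ErbB receptors and not the members themselves. The limma fit called 13 higher and 2 lower in the ISLR-labelled libraries (adjusted p under 0.05), and after scaling 4 higher and 4 lower. Without labelled ISLR 3 the counts as deposited were 8 and 1. These shares stand against 38.5% and 7.38% of all tested genes as deposited (45.9% in either direction), and 18.2% and 20.4% after scaling (38.6% in either direction). In the authors' deposited table, 51.2% of the tested genes had an adjusted p under 0.05.

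The genes of the 3 proteins reported to act with ISLR were all called higher as deposited, against 38.5% of all tested genes. After scaling 0 were higher and 0 lower, against 18.2% and 20.4%, and with quantile normalization 1 (DVL2) was higher. Their median log2 difference was 0.39 and, after scaling, 0.15. FAT1, an atypical cadherin upstream of the Hippo pathway, stood at 9.69, 15.18 and 12.79 TPM in the ISLR-labelled libraries, against 6.98, 8.82 and 9.63 TPM in the NC-labelled ones (log2 difference 0.51, limma adjusted p = 0.0479). Its lowest ISLR-labelled library lay just above the highest labelled NC, and the call was lost in 5 of 6 fits with 1 library left out, all but that without labelled ISLR 1 (limma adjusted p = 0.0509 to 0.132). BMP7, a bone morphogenetic protein, stood at 26.42, 21.13 and 20.62 TPM in ISLR-labelled libraries, against 17.30, 15.46 and 18.44 TPM in NC-labelled libraries (0.39, limma adjusted p = 0.0255). Its call was lost without labelled ISLR 1 or labelled NC 1 or 2 (limma adjusted p = 0.0549 to 0.0754). DVL2, a Dishevelled protein of Wnt signalling, stood at 42.49, 42.49 and 45.29 TPM in ISLR-labelled libraries, against 32.15, 35.00 and 34.05 TPM in NC-labelled libraries (0.36, limma adjusted p = 0.00218). That call held without any single library.

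Of 13 receptors on which LRIG proteins are known to act, 10 were tested, and 4 were higher and 0 lower in the ISLR-labelled libraries. The shares over all tested genes were 38.5% and 7.38%. After scaling 3 were higher and 1 lower, against 18.2% and 20.4% of all tested genes, and with quantile normalization 2 and 2. The median log2 difference was 0.24, and 0.05 after scaling. ACVR2A (log2 difference 0.27, limma adjusted p = 0.180) and ACVR2B (0.20, limma adjusted p = 0.194), which are type II activin receptors, did not pass. BMPR1A, a type I BMP receptor, stood at 4.96, 6.45 and 5.44 TPM in ISLR-labelled libraries, against 2.42, 3 and 2.95 TPM in the NC-labelled libraries (log2 difference 0.80, limma adjusted p = 0.00242). ACVR1, another type I receptor, had a difference of 0.67 (limma adjusted p = 0.00271), and ERBB2, the ErbB receptor without a ligand of its own, one of 0.50 (limma adjusted p = 0.00353). These 3 also passed after scaling. BMPR2, the type II BMP receptor, had a difference of 0.59 (limma adjusted p = 0.0161), did not pass after scaling, and lost the call without labelled ISLR 1 or 3 or labelled NC 1 (limma adjusted p = 0.0506 to 0.0553). ERBB3, the gene lower after scaling (limma adjusted p = 0.0271), stood as deposited at 3.50, 1.93 and 2.36 TPM in ISLR-labelled libraries, against 3.34, 4.14 and 4.35 TPM in NC-labelled libraries (-0.48, limma adjusted p = 0.0666). EGFR (0.18), MET (0.06) and RET (-0.07) did not pass as deposited.

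Of 10 ErbB ligands 3 were tested, and the other 7 stayed at or under 0.70 TPM in every library without being listed at 0 in all 6. The tested ones had a median log2 difference of -0.18 and, after scaling, -0.33. As deposited 0 were higher and 1 lower, against 38.5% and 7.38% of all tested genes. After scaling 0 were higher and 2 lower, against 18.2% and 20.4%, and quantile normalization gave the same counts. NRG4, a ligand of ERBB4, was lower in the ISLR-labelled libraries at 1.63, 1.29 and 0.91 TPM in ISLR-labelled libraries, against 1.83, 2.62 and 2.20 TPM in the NC-labelled ones (log2 difference -0.50, limma adjusted p = 0.0444). Its call was lost without ISLR-labelled library 2 or 3, or NC-labelled library 2 or 3 (limma adjusted p = 0.0894 to 0.131). HBEGF was the most abundant and did not pass as deposited (-0.05, limma adjusted p = 0.598, and 0.0173 after scaling).

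LINGO1 takes part in the Nogo receptor complex. The list held 9 genes of this complex, its ligands, its receptor homologues and its downstream GTPase. Of these 6 were tested, and 4 were higher and 1 lower in the ISLR-labelled libraries. Over all tested genes 38.5% were called higher and 7.38% lower. After scaling 0 were higher and 1 lower, against 18.2% and 20.4%, and with quantile normalization 0 passed. The median log2 difference was 0.27, and 0.03 after scaling. The Nogo receptor gene RTN4R itself stood at 11.28, 12.92 and 11.94 TPM in ISLR-labelled libraries, against 9.94, 11.58 and 10.45 TPM in NC-labelled libraries (0.16, limma adjusted p = 0.169). Its homologues RTN4RL2 (0.47, limma adjusted p = 0.0154) and RTN4RL1 (0.46, limma adjusted p = 0.0201) were called higher as deposited, as were RTN4, which encodes Nogo (0.23, limma adjusted p = 0.0202), and NGFR, the p75 neurotrophin receptor (0.30, limma adjusted p = 0.0456). Of these only RTN4RL2 kept its call without every single library in turn. RTN4RL1 lost it without ISLR-labelled library 1 or 3, or NC-labelled library 2 or 3 (limma adjusted p = 0.0507 to 0.0636), RTN4 without labelled ISLR 3 or labelled NC 2 (0.0511 to 0.0630), and NGFR without any library but labelled ISLR 1 (0.0647 to 0.133). RHOA, the GTPase through which the complex signals, was lower at 771.99, 814.22 and 823.28 TPM in ISLR-labelled libraries, against 942.41, 862.91 and 892.00 TPM in NC-labelled libraries (-0.16, limma adjusted p = 0.0145).

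Among 6 synaptic partners of LRRC4B and its close relatives, 4 were tested, and 2 were higher and 0 lower in the ISLR-labelled libraries. Over all tested genes the shares were 38.5% and 7.38%. After scaling 1 was higher and 0 lower, against 18.2% and 20.4%, and with quantile normalization 2 were higher and 1 lower. The median log2 difference was 0.25, and 0.01 after scaling. PTPRS, a receptor phosphatase, stood at 19.49, 20.93 and 20.54 TPM in ISLR-labelled libraries, against 12.35, 13.58 and 13.45 TPM in the NC-labelled libraries (log2 difference 0.59, limma adjusted p = 0.000702). PTPRF, a receptor phosphatase known as LAR, had a difference of 0.36 (limma adjusted p = 0.00560) and did not pass after scaling. NTNG2, a netrin-G, stood at 1.86, 1.71 and 0.84 TPM in ISLR-labelled libraries, against 4.87, 1.65 and 3.77 TPM in NC-labelled libraries, and the groups overlapped (-0.79, limma adjusted p = 0.0796).

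**Figure D4:**
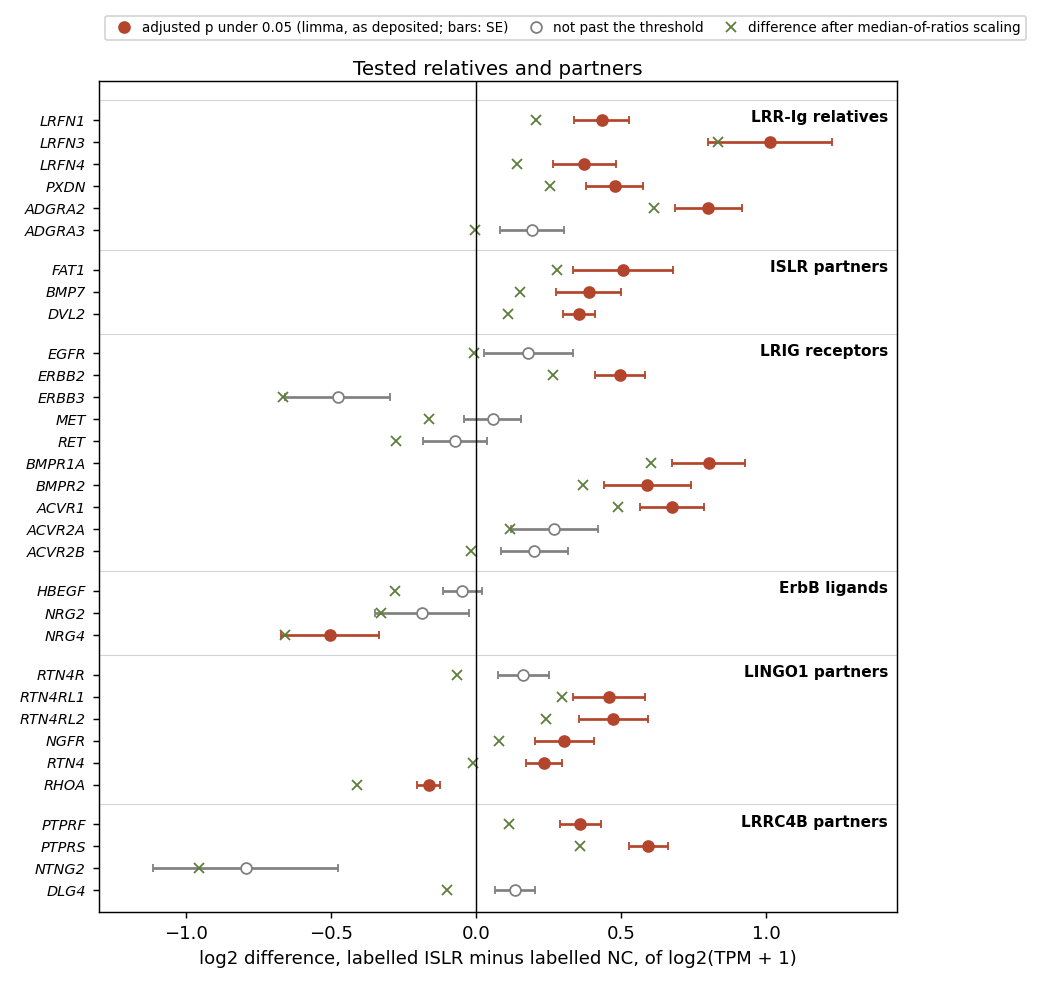
Log2 difference of log2(TPM + 1), labelled ISLR minus labelled NC, with its SE (n = 3 per group), for the 6 tested relatives and the 26 tested partners, by list. Filled points passed the limma threshold as deposited and crosses give the difference after scaling: LRFN3 (1.01), BMPR1A (0.80) and ADGRA2 (0.80) lie farthest right.

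Markers of fibroblasts, the cells best known for ISLR, were low in both groups. Their 10 genes summed to 13.7 to 14.9 TPM in the ISLR-labelled libraries and to 12.0 to 16.9 TPM in the NC-labelled ones. THY1 and FAP were listed at 0 in all 6 libraries, and COL1A1, at 8.95 to 14.28 TPM, made up most of the sum. Of the 2 tested markers, COL1A1 and COL3A1, 0 passed (limma adjusted p = 0.845 and 0.277, and 0 of the 2 at an unadjusted p under 0.05). The 5 genes taken as marks of HEK293 cells were all above 0 in every library, with VIM at 1116.16 to 1259.53 TPM and NEFM at 149.08 to 192.63 TPM. VIM made up most of their sum, and whether the 5 genes set HEK293 cells apart from fibroblasts was not tested. The limma fit called 3 of the 5 (VIM, NEFM and NEFL) higher and 0 lower in the ISLR-labelled libraries as deposited (adjusted p under 0.05). Over all tested genes the shares were 38.5% and 7.38%. NEFL lost its call in 5 of 6 fits with 1 library left out. After scaling 0 of the 5 were higher and 2 lower, against 18.2% and 20.4% of all tested genes. With quantile normalization 2 were higher and 1 lower. VIM was lower after scaling (log2 difference -0.11) and higher with quantile normalization (0.21). PAX2, a kidney transcription factor, stood at 0.95, 0.81 and 0.95 TPM in ISLR-labelled libraries, against 1.47, 1.5 and 1.17 TPM in NC-labelled libraries (log2 difference -0.32, limma adjusted p = 0.0883, and 0.0342 after scaling).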

How the data were processed

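RNA-seq values of 6 HEK293FT libraries were used, grouped by their titles. The authors deposited TPM per gene and library, the mean TPM of each group, a gene length, and, for their own comparison, raw and adjusted p-values. Per the submitters' processing notes, the build was GRCh38.p10 and the tools included HISAT2, Cufflinks and RSEM, whose roles and versions are not stated there. Aligner settings, strand setting and the tool behind the TPM: not given in the sources used here. DESeq2 is named for the authors' comparison in the name of their deposited table.

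After 1 blank row was left out, genes that reached 1 TPM in 3 or more libraries were fitted as log2(TPM + 1) with limma 3.58.1 in R 4.3.3 (trend and robust options, group as the only term, two-sided, Benjamini-Hochberg adjusted p under 0.05 over all 13869 tested genes). The pseudocount of 1 makes a log2 difference understate the change of low genes. The fit was also run on simulated data to check the code, and no statement here rests on that run. A gene that did not pass may still differ, since small differences can be missed with 3 libraries per group. For scaling, each library was divided by the median ratio of its genes to their geometric mean. The 8 genes, the gene lists and the named genes were chosen with earlier results of these data known. Named were the 8 genes, up to 6 genes per list called as deposited, by smallest p, and the 3 partners of ISLR. Within 500 kb of ISLR, the genes called as deposited and some others were named. Also named were genes off in one group and on in the other, and the 3 most similar profiles of each expressed member. Other genes were named after their values were seen. Positions and transcripts are from GENCODE 29 and promoter windows from RefSeq. Plots used Python 3.11.15 and matplotlib 3.10.9. Alternatives were other pseudocounts, filters and scalings, limma without trend and robust, a replicate block, each library left out in turn, and the authors' adjusted p.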

Additional observations from a re-analysis of the deposited data

How the results depend on the processing

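Over the 15 alternatives, the count of all genes called stayed within 1.5 times of 6370 (4565 to 7475, and 5073 to 5505 without single libraries), but its split changed with scaling. As deposited, 5346 were higher and 1024 lower in the ISLR-labelled libraries, against 2521 and 2827 after median-of-ratios scaling and 2454 and 2111 after quantile normalization. The 5 calls among the relatives became 2 after scaling, 2 after quantile normalization and 3 with a filter of 5 TPM, where only 3 of them were tested, and ranged from 4 to 5 without single libraries. The count of calls among the partners was 15 as deposited, 8 after scaling and 8 by the adjusted p of the authors' deposited table. The genes behind these counts differ: those after scaling include ERBB3 and HBEGF, which were not called as deposited. Without single libraries the count ranged from 9 to 13, the lowest being without labelled ISLR 3. The cause was not tested. The log2 difference of ISLR was -9.05, and -12.29 or -6.75 with a pseudocount of 0.1 or 5 TPM, -9.17 after scaling and -9.08 to -9.02 without single libraries. Of the 20 calls among relatives and partners, 12 were kept in all 6 fits without 1 library, and 8 after scaling.

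Libraries with the same replicate number did not deviate together (correlations of -0.0556 to 0.0468 over tested genes), so the numbers were not taken as pairs. With a replicate block, 5778 genes, 5 relatives and 11 partners were called, and ISLR stood at -9.05. Depth is unknown from TPM, which limits what can be said of genes listed near 0, ISLR2 and LRRN1 included.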

Other observations

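The authors' deposited table gives adjusted p-values for the 8 genes that do not follow the order of the TPM differences. LRIG3, at 8.69 TPM in the ISLR-labelled libraries and 8.56 TPM in the NC-labelled ones by the authors' means, has an adjusted p of 0.0457 in the authors' deposited table, while LINGO1 has 0.948 there, with means of 18.95 TPM in ISLR-labelled and 15.74 TPM in NC-labelled libraries. LRIG1 has 0.413 in the authors' deposited table, with means of 6.72 TPM in ISLR-labelled and 5.21 TPM in NC-labelled libraries. LRRC4B has an adjusted p of 7.35e-06 in the authors' deposited table, which marks only ISLR of the 8 as significant. How that comparison was set up is not stated in the sources, and these values are not used as support for any statement above.

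Some genes of the lists stood high in 1 library, and they were picked for mention after their values were seen. SLIT3, a secreted axon guidance protein and homologue of SLIT2, stood at 0.25, 0.28 and 0.21 TPM in the ISLR-labelled libraries, against 59.27, 0.38 and 0.74 TPM in the NC-labelled ones. ELFN1, a synaptic protein with leucine-rich repeats, stood at 2.13, 2.65 and 3.25 TPM in ISLR-labelled libraries, against 7.62, 2.42 and 2.16 TPM in NC-labelled libraries. LRRC4, a close relative of LRRC4B, stood at 0.51, 0.61 and 0.57 TPM in ISLR-labelled libraries, against 1.5, 0.30 and 0.34 TPM in NC-labelled libraries. LRRTM4, another synaptic protein with leucine-rich repeats, stood at 0.66, 0.94 and 0.69 TPM in ISLR-labelled libraries, against 0.22, 1.4 and 0.24 TPM in NC-labelled libraries. The high library was NC-labelled library 1 for SLIT3, ELFN1 and LRRC4 and NC-labelled library 2 for LRRTM4.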
